A study of Mus musculus with 6 samples.

Results

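The S100 genes encode small calcium-binding proteins, and 10 of them, S100a1, S100a4, S100a6, S100a8, S100a9, S100a10, S100a11, S100a13, S100a16 and S100b, were examined in mouse epididymal white adipose tissue (eWAT). They were picked by symbol from the 21361 named genes of the table, with the difference between the genotypes already known. The differences between genotypes are therefore given as a description, without p values for these 10 genes, and nothing is read from how many of them passed a threshold. Each S100 protein carries a pair of EF-hands, the helix-loop-helix fold that holds calcium, and usually works as a dimer that opens on calcium binding and grips a target protein. Some family members also leave the cell and act on receptors such as RAGE (Ager) and Tlr4. In fat, S100 transcripts come from adipocytes, fibroblasts, macrophages and, in small amounts, from nerve sheath cells.

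Male mice were compared, 3 Mettl14f/f and 3 Mettl14Δfat, and the eWAT RNA of each mouse was sequenced as 1 library. Mettl14f/f mice carry loxP-flanked Mettl14 without Cre (the labels write WT for their genotype), and Mettl14Δfat mice (Mettl14 AKO in the labels) carry the same alleles with adiponectin-Cre, which deletes Mettl14, a subunit of the RNA m6A methyltransferase, in adipocytes and leaves it in the other cells of the tissue. All mice were 8 weeks old when a high fat diet (HFD) began and were fasted overnight. The HFD lasted 16 weeks by the labels and the methods and 20 weeks by the series' design text. Adiposity also differed between the genotypes on this diet in the study, and in these libraries it cannot be told apart from the loss of Mettl14.

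Values are FPKM, fragments scaled to transcript length and to the fragments sequenced, as the authors made them, divided here by a scaling factor per library (0.932 to 0.963 for Mettl14f/f mice, 1.04 to 1.07 for Mettl14Δfat mice). Differences are log2 differences of FPKM + 1, Mettl14Δfat minus Mettl14f/f, with the standard error (SE) from limma over 12955 genes, those whose mean reached 1 FPKM. They understate the change of low genes. Mettl14 was 5.35, 5.01 and 5.81 FPKM in the Mettl14f/f mice and 4.21, 4.12 and 4.27 FPKM in the Mettl14Δfat mice (log2 difference −0.30, SE 0.0658, adjusted p = 0.0108 from limma). Mettl14 missed the threshold without scaling (adjusted p = 0.0856 from limma) and with Mettl14Δfat replicate 3 alone (adjusted p = 0.134 from limma). Mettl14Δfat replicates 1 and 2 held transcripts of the male germ line and of epithelium. The 8 germ line markers summed to 186 and 289 FPKM there, to 0.425 FPKM in Mettl14Δfat replicate 3 and to 0.279 to 0.987 FPKM in Mettl14f/f. Results are therefore also given for Mettl14Δfat replicate 3 by itself, set against all 3 Mettl14f/f mice, where the lone mouse is taken to have the same spread as the Mettl14f/f group. Bulk libraries cannot separate fewer cells of a type from less RNA per cell.

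The 10 S100 transcripts spanned from 0.708 to 1481 FPKM, and the differences between genotypes went both ways. S100a1, S100a4 and S100a6 were lower in Mettl14Δfat eWAT, S100a8 and S100a16 were higher, and the others differed little or were too low to tell. At an adjusted p under 0.05, 2 of the 10 were higher and 3 lower, against a background of 49.5% of all tested genes, 24.8% higher and 24.7% lower. In 9 of the 10 the groups did not overlap, 3 higher and 6 lower, against a background of 61.2% of all tested genes (30.3% higher and 30.9% lower). Of the 3 higher, S100b reached the filter only through the Mettl14Δfat mice (means as deposited of 0.757 FPKM in Mettl14f/f and 1.27 FPKM in Mettl14Δfat). As deposited, S100a10 and S100a13 lay next to 0 and S100a11 turned direction. The median log2 difference was −0.13 over the 10 genes and 0.01 over all tested genes. Together the 10 transcripts made up 0.552% to 0.594% of the FPKM sum in Mettl14f/f mice and 0.485% to 0.516% in Mettl14Δfat mice, shares that do not depend on the scaling.

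**Figure D1:**
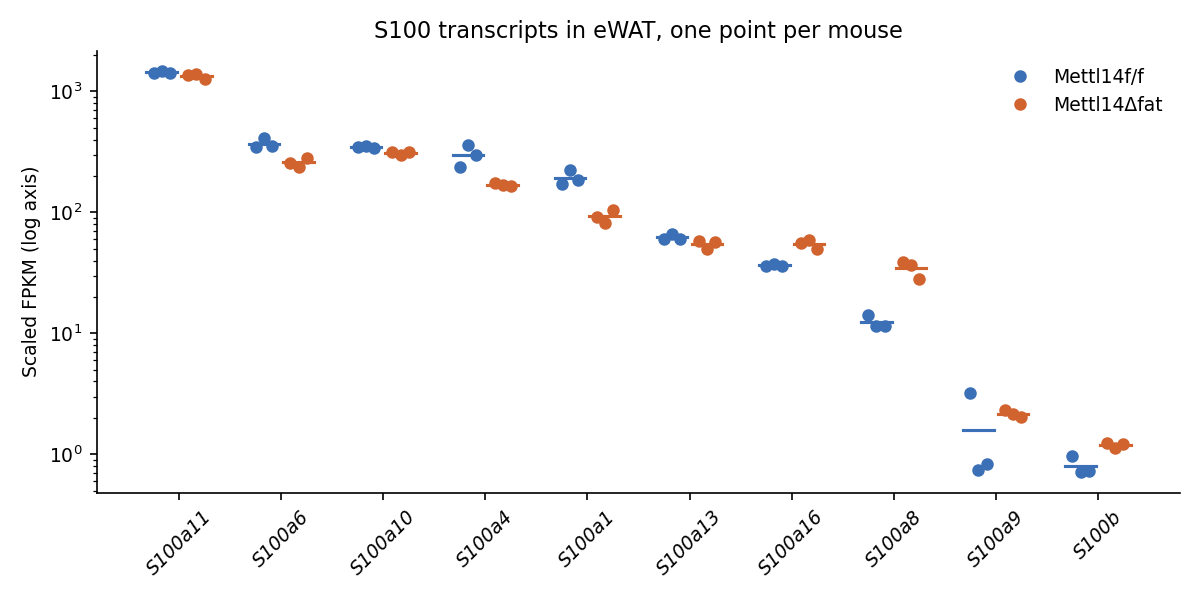
Scaled FPKM (log axis) of the 10 S100 transcripts in each of 3 Mettl14f/f and 3 Mettl14Δfat mice, with a line at each group mean. S100a11 lies highest at 1274 to 1481 FPKM in all 6 mice, S100a8 lies at 11.5 to 14.1 FPKM in Mettl14f/f and at 27.9 to 39.3 FPKM in Mettl14Δfat, and the single high S100a9 value of Mettl14f/f is replicate 1.

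S100a11 was the most abundant of the 10. It binds annexin A1 when calcium rises. S100a11 was 1416, 1481 and 1432 FPKM in Mettl14f/f mice and 1360, 1400 and 1274 FPKM in Mettl14Δfat mice. It ranked between 24 and 32 among all genes in every library and made up 50.3% to 59.9% of the summed FPKM of the 10. The log2 difference of S100a11 was −0.10 (SE 0.0750) after scaling and 0.06 in FPKM as deposited, where the direction turned, so no direction is given for it.

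S100a10, also called p11, does not bind calcium and forms a tetramer with annexin A2 that holds plasminogen activators at the cell surface. S100a10 was 348, 354 and 343 FPKM in Mettl14f/f mice and 318, 299 and 316 FPKM in Mettl14Δfat mice. Its groups did not overlap after scaling, and as deposited their means were 329 FPKM in both genotypes. The within-group spread was 1.53% and 3.36% of the mean (SD over mean, n = 3), the lowest of the 10 in each genotype apart from S100a4 in Mettl14Δfat (3.21%). S100a13, which takes part in the export of FGF1 and interleukin 1α, was 59.8, 66.5 and 60.7 FPKM in Mettl14f/f and 57.7, 49.7 and 56.9 FPKM in Mettl14Δfat. The log2 difference of S100a13 was −0.18 (SE 0.0791), and −0.03 as deposited.

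S100a1 showed the largest decrease. S100a1 is best known from heart and skeletal muscle, where it acts on the calcium pump and the ryanodine receptor. It was 170, 223 and 187 FPKM in the Mettl14f/f mice and 92.3, 81.6 and 105.6 FPKM in the Mettl14Δfat mice. All Mettl14Δfat mice lay below all Mettl14f/f mice, and the mean was 51.8% lower. The log2 difference was −1.04 (SE 0.132), −0.88 as deposited and −0.84 with Mettl14Δfat replicate 3 alone.

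S100a1 and S100a13 begin within the same stretch of chromosome 3 and run in opposite directions. In RefSeq (GRCm38.p6) S100a1 covers 90511034 to 90514330 on the minus strand and S100a13 covers 90514233 to 90524581 on the plus strand, so the annotated genes share 98 bases. The RefSeq window around the S100a13 start (GRCm38.p6, chr3:90514185-90514484, plus strand) is shown because the starts of both genes lie in it. The capitals mark the 98 bases that both genes cover.
S100a13 and S100a1: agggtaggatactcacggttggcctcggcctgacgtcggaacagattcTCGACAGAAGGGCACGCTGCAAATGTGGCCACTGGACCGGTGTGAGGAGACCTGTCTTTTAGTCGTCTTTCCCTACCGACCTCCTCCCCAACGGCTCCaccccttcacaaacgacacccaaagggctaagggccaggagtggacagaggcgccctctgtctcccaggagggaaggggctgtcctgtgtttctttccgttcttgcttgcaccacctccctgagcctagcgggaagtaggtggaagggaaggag

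The ratio of S100a1 to S100a13, which is free of the scaling, was 2.85, 3.36 and 3.08 in Mettl14f/f mice and 1.60, 1.64 and 1.86 in Mettl14Δfat mice. Every Mettl14Δfat mouse lay below every Mettl14f/f mouse. The sources used here do not say whether counting used the strand, so fragments from the shared bases cannot be assigned to either gene with certainty.

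**Figure D2:**
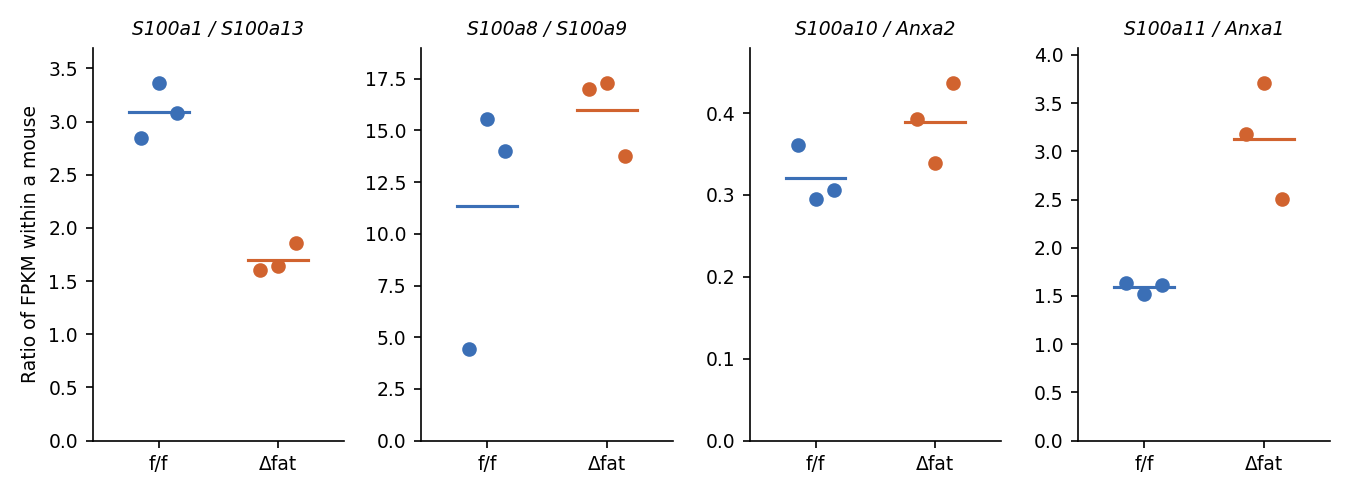
Ratio of FPKM between pairs of transcripts within each mouse (linear axes from 0), with a line at the mean of 3 mice per genotype. S100a1 over S100a13 is 2.85 to 3.36 in Mettl14f/f mice, against 1.60 to 1.86 in Mettl14Δfat mice, S100a11 over Anxa1 is 1.52 to 1.64 and 2.51 to 3.70, and the ratios of S100a8 to S100a9 and of S100a10 to Anxa2 overlap between genotypes.

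S100a4 and S100a6 were also lower. S100a4, or metastasin, binds the heavy chain of nonmuscle myosin (Myh9) and is made by macrophages and fibroblasts. S100a4 was 238, 360 and 300.3 FPKM in Mettl14f/f mice and 176, 168 and 165 FPKM in Mettl14Δfat mice. The Mettl14f/f mice varied by 20.4% of their mean and the Mettl14Δfat mice by 3.21%. The log2 difference was −0.80 (SE 0.146), and −0.82 with Mettl14Δfat replicate 3 alone. S100a6, or calcyclin, which binds Cacybp and Sugt1 in the ubiquitin pathway, was 344, 410 and 352 FPKM in Mettl14f/f mice and 257, 239 and 284 FPKM in Mettl14Δfat mice. The groups did not overlap, and the log2 difference was −0.50 (SE 0.0995), −0.34 as deposited and −0.36 with Mettl14Δfat replicate 3 alone.

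Within the Mettl14f/f group, replicate 2 held the highest value for 7 of the 10 transcripts, S100a1, S100a4, S100a6, S100a10, S100a11, S100a13 and S100a16. For S100a10 this depended on the scaling, since as deposited replicate 1 was higher (335 against 330 FPKM). Replicate 2 also had the lowest summed adipocyte markers of its group (8063 FPKM against 9936 and 11146) and the highest summed macrophage markers (11827 FPKM against 10683 and 10846). Their part in the S100 values was not tested.

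S100a8 and S100a9 are the subunits of calprotectin, a protein of neutrophils and monocytes that binds zinc and manganese and signals through Tlr4 and RAGE. S100a8 had the largest increase of the 10. S100a8 was 14.1, 11.5 and 11.6 FPKM in Mettl14f/f mice and 39.3, 36.9 and 27.9 FPKM in Mettl14Δfat mice, with no overlap. The mean was 2.79 times that of Mettl14f/f, and the log2 difference was 1.40 (SE 0.141), 1.56 as deposited and 1.12 with Mettl14Δfat replicate 3 alone. S100a9 was 3.20, 0.740 and 0.828 FPKM in Mettl14f/f mice and 2.31, 2.14 and 2.03 FPKM in Mettl14Δfat mice. One mouse decided this comparison: Mettl14f/f replicate 1 lay above all Mettl14Δfat mice and the other Mettl14f/f mice below them. The log2 difference of S100a9 was 0.41 (SE 0.334) in all and 0.82 without that mouse.

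The calprotectin subunits were far from equal in level. S100a8 was 4.42 times S100a9 in Mettl14f/f replicate 1 and 13.8 to 17.3 times in the other 5 mice. Fragment numbers limit S100a9: at the depth implied by the authors' mean scaled counts, medians of 22200000 (Mettl14f/f) and 19200000 (Mettl14Δfat) fragments, its mean FPKM corresponds to about 17.5 and 22.8 fragments per library, a counting SD of 23.9% and 20.9%. For S100a8 these were about 127 and 344 fragments.

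Of 12 neutrophil markers 3 passed the filter, Csf3r, Cxcr2 and Mmp9, and all 12 summed to 9.93 to 12.4 FPKM in Mettl14f/f and 12.9 to 19.7 FPKM in Mettl14Δfat. Ly6g, the surface antigen that defines mouse neutrophils, was listed at 0 in 2 libraries and at 0.0531 to 0.141 FPKM in the other 4. The granule genes Camp, Ltf, Ngp, Elane and Mpo stayed under 1 FPKM in every library. Ltf was lower without overlap (0.239 to 0.354 FPKM in Mettl14f/f and 0.0470 to 0.103 FPKM in Mettl14Δfat). Camp was higher without overlap (0 to 0.145 and 0.193 to 0.394 FPKM). Both genes were under the filter, at lower levels than S100a9, and were not tested. Of those that passed the filter, Cxcr2, the chemokine receptor of neutrophils, was higher (1.79 ± 0.0981 and 3.39 ± 0.0890 FPKM, SD, n = 3, log2 difference 0.66, adjusted p = 0.000964 from limma). Mmp9, a gelatinase, was higher as well (log2 difference 0.74, adjusted p = 0.0197 from limma), and missed the threshold without Mettl14f/f replicate 1, Mettl14f/f replicate 3 or Mettl14Δfat replicate 1 (adjusted p of 0.0626, 0.0694 and 0.0596 from limma). Csf3r, the receptor of granulocyte colony-stimulating factor, was 4.78 to 5.51 FPKM in Mettl14f/f and 4.18 to 8.14 FPKM in Mettl14Δfat, above S100a9 in every library, and did not pass (log2 difference 0.22, adjusted p = 0.391 from limma). Leaving out Mettl14Δfat replicate 2 gave 3 neutrophil markers higher in place of 2.

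S100a8 and S100a9 lie 22.6 kb apart on chromosome 3 and point toward each other. Their RefSeq start windows (GRCm38.p6) are shown because these genes encode the subunits of 1 protein and differed in level and in difference. Capitals mark matches, on either strand, to the TATA box TATAAA, the GC box GGGCGG, the C/EBP element TTGCNNAA and the AP-1 element TGANTCA. The S100a8 window is chr3:90668821-90669120 on the plus strand, and the S100a9 window is chr3:90695672-90695971 on the minus strand.
S100a8: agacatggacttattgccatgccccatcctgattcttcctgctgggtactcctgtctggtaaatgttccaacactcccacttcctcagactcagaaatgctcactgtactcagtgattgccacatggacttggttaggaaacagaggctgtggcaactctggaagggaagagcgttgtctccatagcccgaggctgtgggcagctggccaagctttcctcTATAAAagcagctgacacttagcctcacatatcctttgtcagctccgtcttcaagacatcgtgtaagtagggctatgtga
S100a9: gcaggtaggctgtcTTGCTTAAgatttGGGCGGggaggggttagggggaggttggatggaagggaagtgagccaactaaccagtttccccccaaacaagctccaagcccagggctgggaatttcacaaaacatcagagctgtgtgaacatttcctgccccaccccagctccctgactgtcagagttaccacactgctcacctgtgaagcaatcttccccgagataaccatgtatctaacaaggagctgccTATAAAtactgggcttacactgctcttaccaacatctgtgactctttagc

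The S100a8 window held 1 match, a TATAAA at position −30 from the start. The S100a9 window held a TATAAA at the annotated start itself, a GGGCGG at position −223 and a TTGCNNAA at position −236. Of all 32851 windows in the table, 13.6% held the TATA box, 35.7% the GC box, 10.8% the C/EBP element and 7.81% the AP-1 element. Among the other 8 windows of the S100 genes examined, from 7 genes, S100a4 held a TATAAA at position −31, and S100a11 held GGGCGG 3 times and TGANTCA 2 times. One S100a16 window held a GGGCGG and a TGANTCA. The windows of S100a1, S100a13, S100a6 and S100b held none of the 4. S100a10 was not matched. The windows of S100a11, S100a13 and S100a1 held 15, 14 and 11 CpG, against a median of 7 over all windows, and those of S100a8 and S100a9 held 4 and 2. A match is a run of letters, not evidence of binding.

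S100a16 was higher. S100a16 has been described as promoting fat cell differentiation in mouse preadipocytes. It was 36.0, 37.5 and 35.8 FPKM in Mettl14f/f mice and 55.9, 58.9 and 49.7 FPKM in Mettl14Δfat mice, without overlap and 50.5% higher in the mean. The log2 difference was 0.57 (SE 0.0734), 0.73 as deposited and 0.45 with Mettl14Δfat replicate 3 alone.

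S100b, known from astrocytes and Schwann cells and also made by adipocytes, was the lowest of the 10. S100b was 0.966, 0.708 and 0.722 FPKM in Mettl14f/f mice and 1.25, 1.12 and 1.23 FPKM in Mettl14Δfat mice, about 24.9 and 36.1 fragments per library. The groups did not overlap and the log2 difference was 0.29 (SE 0.124), and 0.37 as deposited. Of 10 Schwann cell markers, Fabp7 and Mbp were lower (log2 differences −1.74 and −0.93, adjusted p = 0.000254 and 0.000416 from limma) and Egfl8 was higher (0.55, adjusted p = 0.00411 from limma). The other 7 were under the filter, among them Sox10, the transcription factor that defines these cells, at 0 to 0.118 FPKM in Mettl14f/f and 0.214 to 0.280 FPKM in Mettl14Δfat.

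**Figure D3:**
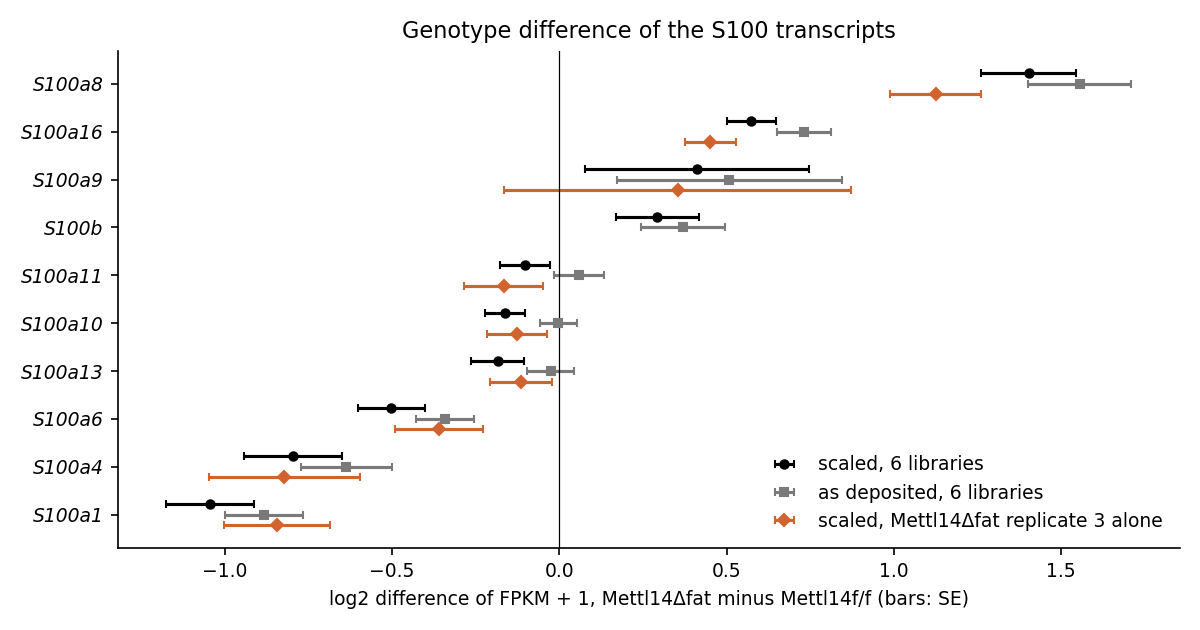
Log2 difference of FPKM + 1, Mettl14Δfat minus Mettl14f/f, for the 10 S100 transcripts, with SE bars, after scaling, in FPKM as deposited and with Mettl14Δfat replicate 3 alone. S100a8 (1.40, 1.56 and 1.12) and S100a1 (−1.04, −0.88 and −0.84) stand at the ends in all 3 fits, while S100a10, S100a11 and S100a13 sit at or next to 0 as deposited. S100b has no value with replicate 3 alone because its mean is then under 1 FPKM.

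Along chromosome 3, S100a1 to S100a9 fill a stretch of 185 kb that holds 12 protein-coding genes, all of them S100 genes. Of these, 7 passed the filter and all 7 are members examined here. The 5 others lie between them. S100a14, S100a3, S100a2, S100a5 and S100a7a were each under 1 FPKM in every library. S100a5, at 0.311 FPKM in 1 Mettl14f/f mouse and listed at 0 in the other 5, lies between S100a4 and S100a6. S100a3 covers the whole of S100a2 in the annotation. S100a11 and S100a10 lie 2825 kb beyond S100a9 and 28.8 kb from each other. Between S100a9 and S100a11 the table has 25 protein-coding genes, of which 2 passed the filter, 9130204L05Rik and the sperm gene Smcp, and Smcp was 12.3 and 20.5 FPKM in the libraries with germ line transcripts and at most 0.0579 FPKM in the other 4. S100b lies alone on chromosome 10 (76253836 to 76261319).

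**Figure D4:**
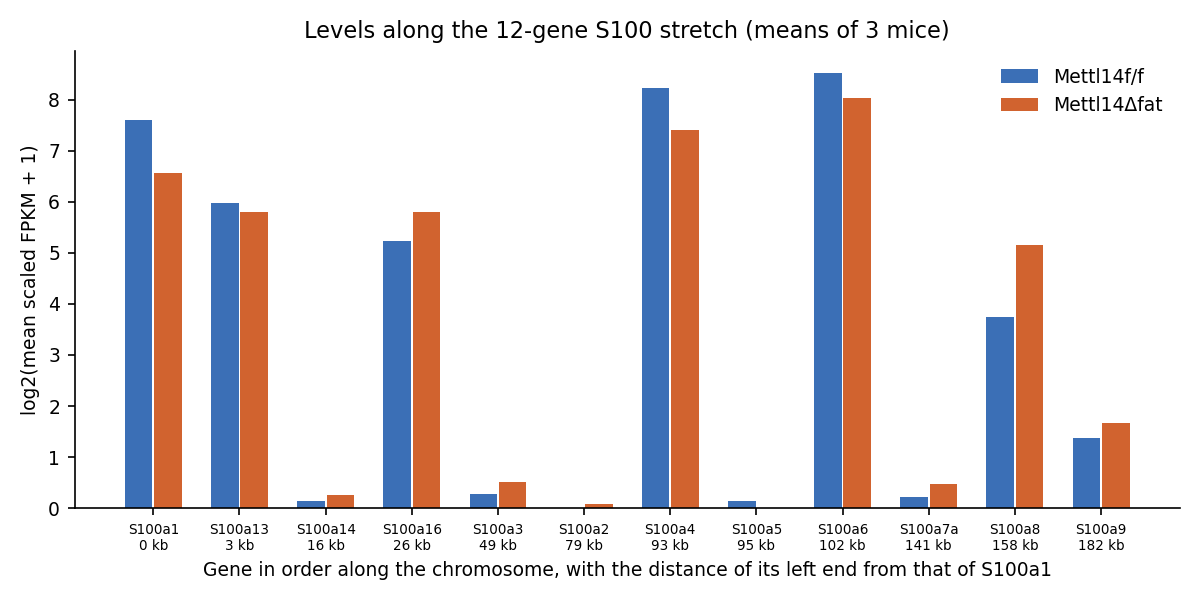
Mean level, as log2 of scaled FPKM + 1, of the 12 S100 genes from S100a1 to S100a9 in chromosomal order, with the distance in kb of each gene's left end from that of S100a1 (means of 3 mice per genotype). The 7 expressed genes are separated by 5 genes under 1 FPKM, and neighbours differ in direction: S100a1 and S100a13 are lower or little changed, S100a16 is higher, S100a4 and S100a6 are lower and S100a8 is higher.

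Outside this stretch, S100g, the calbindin-D9k that carries calcium through gut cells, was the only other S100 gene past the filter. S100g was 1.38, 1.42 and 1.51 FPKM in Mettl14f/f mice and 4.21, 3.72 and 3.35 FPKM in Mettl14Δfat mice (log2 difference 0.96, SE 0.0934, adjusted p = 0.000611 from limma, higher in 3 of 3 mice). S100z was at 0 in 5 of 6 libraries. Of the fused-type S100 genes, which carry an S100 domain in a long skin protein, Tchh, Tchhl1 and Rptn were in the table and stayed under 1 FPKM.

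The genes that S100 proteins act with were mostly lower in Mettl14Δfat eWAT. Of 10 annexins tested, 7 passed as lower and 1 as higher (limma, adjusted p under 0.05), against 24.7% and 24.8% of all tested genes. Their median log2 difference was −0.49 against 0.01 over all tested genes. Anxa4 fell from 187 ± 18.8 to 89.5 ± 15.7 FPKM and Anxa1, an inhibitor of leukocyte recruitment, from 909 ± 58.0 to 438 ± 65.8 FPKM (SD, n = 3, adjusted p = 0.00154 and 0.000983 from limma). Anxa8 rose from 3.82 ± 0.362 to 6.999 ± 1.24 FPKM (adjusted p = 0.00375 from limma). S100a11 was 1.52 to 1.64 times its partner Anxa1 in Mettl14f/f mice and 2.51 to 3.70 times in Mettl14Δfat mice, and the ratio of S100a10 to Anxa2 overlapped between the groups (0.296 to 0.360 and 0.340 to 0.436).

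Among the receptors, 5 of 8 tested were lower and 2 higher, against 24.7% and 24.8% of all tested genes. Their median log2 difference was −0.43. The receptors passing as lower were 3 without Mettl14Δfat replicate 1, 3 as deposited and 3 with Mettl14Δfat replicate 3 alone. Alcam, an adhesion molecule that binds S100b, fell from 38.4 ± 3.72 to 15.3 ± 0.967 FPKM (SD, n = 3, adjusted p = 0.000217 from limma), and Cd36, a fatty acid carrier reported to bind S100a8 and S100a9, had a log2 difference of −0.77 (adjusted p = 0.000638 from limma). Ager, the receptor RAGE, rose from 1.79 ± 0.240 to 2.85 ± 0.221 FPKM (adjusted p = 0.00933 from limma), and missed the threshold with Mettl14Δfat replicate 3 alone (adjusted p = 0.121 from limma). Bsg, basigin, had a log2 difference of 0.24 (adjusted p = 0.0187 from limma), which missed the threshold without Mettl14f/f replicate 2, Mettl14f/f replicate 3 or Mettl14Δfat replicate 1 (adjusted p of 0.0632, 0.0603 and 0.0550 from limma). Tlr4 did not pass, at 7.67 to 8.87 and 6.09 to 8.21 FPKM.

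Of 14 intracellular targets tested, 7 were lower and 2 higher, with a median log2 difference of −0.18, and with Mettl14Δfat replicate 3 alone 4 were lower and 1 higher. Iqgap1, a scaffold of the actin cytoskeleton that binds S100b, fell from 129.9 ± 11.6 to 57.1 ± 5.42 FPKM, and Ahnak, which binds S100a10 and annexin A2, from 96.2 ± 2.42 to 60.7 ± 1.87 FPKM (SD, n = 3, adjusted p = 0.000394 and 0.000393 from limma). Dysf, dysferlin, which repairs membranes, and Stub1, a ubiquitin ligase, were higher (log2 differences 0.81 and 0.36, adjusted p = 0.000498 and 0.0137 from limma), and Stub1 missed the threshold with Mettl14Δfat replicate 3 alone (adjusted p = 0.118 from limma). The background for the counts of these lists was 24.7% lower and 24.8% higher among all tested genes. All 6 subunits of the phagocyte NADPH oxidase, which S100a8 and S100a9 help to assemble, were lower (median log2 difference −1.09). Cybb, its catalytic subunit, fell from 104.5 ± 3.38 to 45.9 ± 14.6 FPKM and Ncf4 from 43.1 ± 4.57 to 19.0 ± 5.25 FPKM (SD, n = 3, adjusted p = 0.00387 and 0.00316 from limma). Of 11 other EF-hand calcium sensors, 5 were lower and 1 higher (median −0.13; with Mettl14Δfat replicate 3 alone, 2 lower and none higher), with Efhd2 and Pvalb lower (log2 differences −0.97 and −0.81, adjusted p = 0.00231 and 0.00283 from limma) and Pef1 higher (0.28, adjusted p = 0.0129 from limma, 0.0727 with Mettl14Δfat replicate 3 alone).

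**Figure D5:**
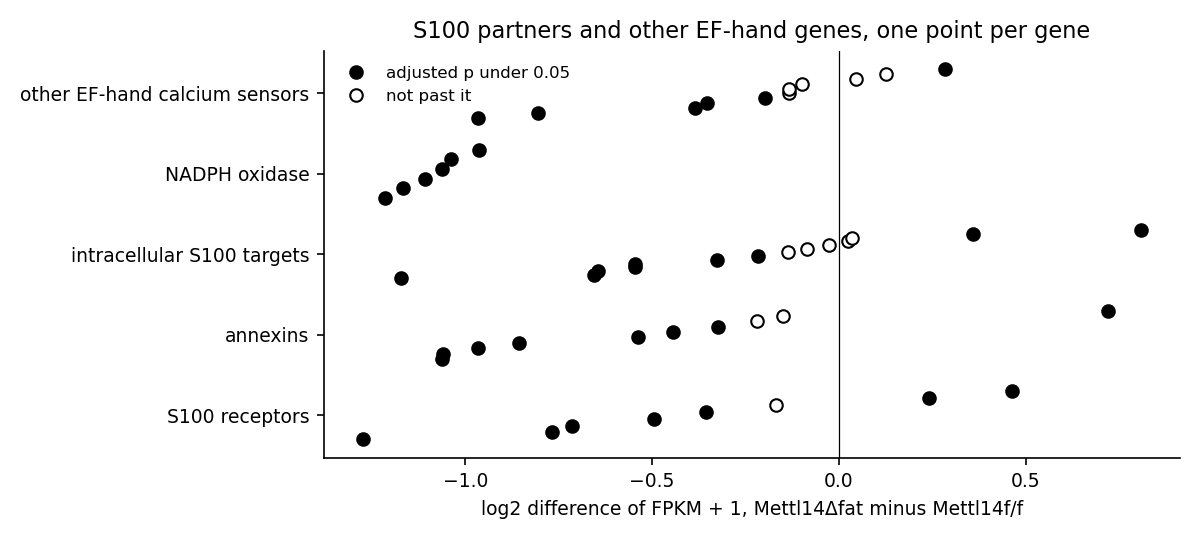
Log2 difference of FPKM + 1, Mettl14Δfat minus Mettl14f/f, for each tested gene of 5 lists: S100 receptors, annexins, intracellular targets, NADPH oxidase subunits and other EF-hand calcium sensors. Filled points passed an adjusted p of 0.05 from limma. All 6 NADPH oxidase points are filled and left of 0, and 7 of 10 annexins are.

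Some lists of cell type markers moved with the genotype beside the S100 transcripts. The background for their counts was 24.7% lower and 24.8% higher among all tested genes. Macrophage markers summed to 10683 to 11827 FPKM in Mettl14f/f and 3879 to 7423 FPKM in Mettl14Δfat (9 of 16 lower, none higher), with Gpnmb and Itgax at log2 differences of −2.89 and −2.32 (adjusted p = 0.000111 and 0.000328 from limma). Lyz2 was the largest part of these sums (means of 3580 and 1745 FPKM). The 7 that did not pass were Csf1r, C1qb, C1qc, Mrc1, C1qa, Fcgr1 and Cd163 (log2 differences −0.52, −0.34, −0.20, −0.005, 0.02, 0.28 and 0.50). Fibroblast progenitor markers summed to 2738 to 3209 and 1925 to 2265 FPKM (4 of 10 lower, 1 higher), with Pi16 and Col3a1 lower and Ly6a higher (log2 differences −1.58, −1.13 and 0.31). Col1a1 and Col1a2 were the others lower. The 5 that did not pass were Dpp4, Lum, Pdgfra, Cd34 and Dcn (−0.25, −0.16, −0.07, −0.004 and 0.18). Endothelial markers summed to 145 to 178 and 322 to 348 FPKM (8 of 8 higher), Egfl7 and Tie1 most (1.22 and 1.18). Adipocyte markers summed to 8063 to 11146 and 10534 to 15222 FPKM (2 of 11 higher, 2 lower), with Fabp4 and Pparg higher and Plin4 and Lep lower (0.61, 0.45, −0.64 and −0.46). Fabp4 alone was 5761 to 7726 and 8415 to 12032 FPKM, most of these sums. The median log2 difference of the 11 adipocyte markers tested was −0.08. The calls of Fabp4, Plin4, Lep and Ly6a were each lost when single libraries were left out, and that of Pparg with Mettl14Δfat replicate 3 alone (adjusted p = 0.0686 from limma). Of the adipocyte markers, 5 were higher and 0 lower as deposited, and 0 were higher and 2 lower with Mettl14Δfat replicate 3 alone. They were 0 lower without Mettl14f/f replicate 1, Mettl14f/f replicate 3 or Mettl14Δfat replicate 1. Of the 6 mesothelial markers tested, 0 passed over all 6 libraries, 3 were lower without Mettl14Δfat replicate 2, 1 was higher without Mettl14Δfat replicate 3 and 5 were lower with Mettl14Δfat replicate 3 alone. The 5 epithelial markers tested, which were high in Mettl14Δfat replicates 1 and 2 alone, did not pass over all libraries, and all 5 were higher without Mettl14Δfat replicate 3. The part of these cell types in the S100 differences was not tested.

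Profiles over the 6 libraries were compared by the Euclidean distance of centred log2(FPKM + 1), as a description. The nearest tested gene outside the 10 was Clcn7, a lysosomal chloride exchanger, for S100a1 (distance 0.103), Chchd6, a mitochondrial cristae protein, for S100a16 (0.0413) and Dusp5, a phosphatase of ERK, for S100a4 (0.129). For S100a6, S100a10, S100a11, S100a13 and S100b it was 6430548M08Rik, Sf3b3, Kif3b, C330013J21Rik and Ric8b, at 0.0286 to 0.0675. S100a8 and S100a9 had the largest distances of the 10, with Gm20594 at 0.215 and Gimap7, a GTPase of lymphocytes, at 0.373. The distance is not scaled to the size of a profile. It therefore tends to be larger for genes that vary more, and does not rank how alike the profiles are in shape.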

How the data were processed

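RNA of eWAT from 3 Mettl14f/f and 3 Mettl14Δfat mice was sequenced by the authors, who deposited 1 FPKM value per gene and mouse. For the steps before that, STAR, HTSeq and DESeq2 stand in the paper's methods, while the submitters' processing notes list mm10 as build and HISAT2, RSEM, DESeq2 and Bowtie2 as tools. Their versions and whether counting used the strand are details not given in the sources used here. Another deposited table of changed genes also holds the authors' group means of scaled counts (a signal, not raw counts). It was used with the table's gene lengths for the depth only (5704 and 6426 genes), and its fold changes and p values were not used. Neither table gives a depth for each library, so precision rests on the spread between mice. Fragment numbers per gene also used GENCODE M21 transcript lengths, and their counting SD covers counting error only.

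Of 21362 rows, 1 had no name and was dropped, and 27 date-like names were set back to gene symbols. Libraries were scaled by an unweighted trimmed mean of M values (30% of ratios and 5% of levels trimmed) over genes whose mean reached 1 FPKM, and log2(FPKM + 1) was tested by limma 3.58.1 (R 4.3.3, lmFit, eBayes with trend, two-sided, Benjamini-Hochberg over 12955 genes). A count test was not run, since its input would be raw counts. The procedure was tested on simulated data in which few genes changed. The simulation therefore does not cover scaling where as many genes differ as were called here. No exact permutation test was run, because 3 mice per genotype allow a smallest p of 0.1.

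The S100 genes, the other gene lists and the alternatives were chosen with earlier results of these data known. Named genes were, per list, the 2 largest called changes each way, every S100 gene, defining markers at or near 0, and the nearest profile of each S100 gene. The defining markers and granule genes near 0, Csf3r, Tlr4, Smcp and 9130204L05Rik were named after their values were seen. So were Lyz2, Col1a1, Col1a2 and the macrophage and fibroblast progenitor markers that did not pass. The alternatives covered scaling (median of ratios, or none, which is FPKM as deposited), filtering (none, or 1 FPKM in each of the 6 libraries), the pseudocount (0.1), a block on replicate number, and the libraries used (each left out in turn, or Mettl14Δfat replicate 3 alone).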

Additional observations from a re-analysis of the deposited data

How the results depend on the processing

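The 10 S100 transcripts were picked with their differences known, so their counts here describe the alternatives and support no single gene. S100a11 turned direction, to a log2 difference of 0.059, in FPKM as deposited, a scaling that moves the median of all genes from 0.01 to 0.15. With Mettl14Δfat replicate 3 alone, which leaves fewer samples, 1 S100 transcript was counted as lower in place of 3 (S100a4 and S100a6 were not), and the genes changed were 1656 higher and 1519 lower in place of 3214 and 3202. Fewer of the S100 partners and other EF-hand calcium sensors were then counted as higher than over all 6 libraries. As deposited, 4672 genes were higher and 1963 lower. Mettl14 had a log2 difference of −0.16 as deposited and −0.26 with replicate 3 alone, and missed the threshold in both. S100b was tested in neither the fits without a Mettl14Δfat library nor with Mettl14Δfat replicate 3 alone nor under the stricter filter, where its mean or a library was under 1 FPKM, and S100a9 not in the stricter filter.

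Leaving out each library in turn gave 2256 to 3813 genes higher and 2202 to 3565 lower. Of the S100 transcripts, 2 to 3 were higher and 3 lower. The S100 partners and other EF-hand calcium sensors together gave 5 to 7 higher and 24 to 31 lower. Cell type markers gave 14 to 20 lower and 11 to 27 higher. The 27 came without Mettl14Δfat replicate 3, where germ line markers summed to 0.425 FPKM. The calls of Plin4, Lep, Fabp4 and Ly6a were lost without 1 or more single libraries (highest adjusted p of 0.0711, 0.106, 0.0933 and 0.106 from limma). Whether the replicate numbers pair the mice is not known. The deviations of same-numbered mice from their group means had correlations of 0.0393, −0.0931 and −0.1285. With 3 mice per group these cannot settle it. With the replicate number as a block, 1 adipocyte marker was higher and 0 lower, 2 S100 transcripts were higher and 3 lower, and 2656 and 2558 of all genes were. Low depth limits S100a9 and S100b, and S100a9 also varied by 87.8% of its mean between the Mettl14f/f mice.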
